A study of Mus musculus with 18 samples.

Results

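H3K36me2 was followed along 5945 mid-length genes of splenic B cells that had or lacked Mir155. The genes were all protein-coding genes of the GENCODE M21 annotation (mouse genome GRCm38) that were 20 to 100 kb long and overlapped no other protein-coding gene, out of 21938 protein-coding genes on chromosomes 1 to 19, X and Y. The rule uses no measured value, although it was set with earlier results of these data known. Before the overlap rule was applied, 7667 genes lay in this length range. Each gene body was cut into 10 equal bins from its transcription start site (TSS) to its end, so that a bin was 2 to 10 kb long, and 5 kb was added on either side. The value of a bin was the percentage of its bases that lay under the peaks of a library, called coverage here, averaged over the genes.

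B cells were taken from the spleens of C57BL/6J mice, either Mir155-sufficient (WT) or Mir155-deficient (KO), by negative selection with CD43, Ter119 and CD4. All cells were cultured for 2 days with anti-CD40 (1 µg/ml), anti-IgM F(ab')2 (5 µg/ml) and IL-4 (4 ng/ml) at 1% O2 and 5% CO2, and were fixed for chromatin immunoprecipitation (ChIP) with an antibody to H3K36me2 or to Kdm2a. There were 3 libraries per genotype and antibody. Replicate 1 came from a male and replicates 2 and 3 from females in every group, and the labels name no deletion restricted to B cells. Input libraries, 6 in number, were not analysed here. The comparison of genotypes asks whether the loss of miR-155, a microRNA, alters Kdm2a binding and H3K36me2. Peak lists do not measure expression, so the labelled cell type could not be checked against marker genes in the usual way.

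H3K36me2 is the dimethylated form of lysine 36 of histone H3, laid down by the NSD family of enzymes and others, and found over gene bodies and intergenic chromatin. Kdm2a is a demethylase that removes this mark, and its CXXC zinc finger binds DNA with unmethylated CpG, so that it gathers at CpG islands at the starts of many genes. The trimethylated form, H3K36me3, is a separate mark made by Setd2 during transcription towards the 3' end of genes and was not measured.

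To show starts at either end of the range, fully under Kdm2a peaks or without Kdm2a and with high H3K36me2, the 250 bases before the TSS are given for 6 genes. Each is read 5' to 3' on the strand of the gene in GRCm38.p6, in lower case with every CG in capitals, and none overlapped an annotated exon. The first 3 had their whole start (the 1 kb centred on the TSS) under Kdm2a peaks in all 6 Kdm2a lists and no base of it under an H3K36me2 peak in any list. In all, 40 genes had their whole start under Kdm2a peaks in all 6 lists, and these 3 came first among them in the order of gene identifiers. Mef2d, encoding a transcription factor of the MEF2 family, has this stretch at chr3:88142122-88142371 on the plus strand. Kpnb1, encoding the nuclear import receptor importin beta, has it at chr11:97187882-97188131 on the minus strand. Rmnd5a, encoding a subunit of the CTLH ubiquitin ligase, has it at chr6:71440638-71440887 on the minus strand. They held 19, 27 and 29 CG respectively.
Mef2d: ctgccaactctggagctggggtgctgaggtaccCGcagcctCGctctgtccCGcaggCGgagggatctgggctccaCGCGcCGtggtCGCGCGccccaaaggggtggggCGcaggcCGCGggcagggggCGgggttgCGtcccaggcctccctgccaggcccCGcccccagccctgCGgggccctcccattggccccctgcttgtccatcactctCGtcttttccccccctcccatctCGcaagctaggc
Kpnb1: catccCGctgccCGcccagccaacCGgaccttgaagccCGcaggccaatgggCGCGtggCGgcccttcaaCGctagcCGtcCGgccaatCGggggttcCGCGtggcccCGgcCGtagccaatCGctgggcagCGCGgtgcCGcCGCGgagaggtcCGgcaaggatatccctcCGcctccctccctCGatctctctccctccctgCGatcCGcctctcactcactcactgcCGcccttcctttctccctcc
Rmnd5a: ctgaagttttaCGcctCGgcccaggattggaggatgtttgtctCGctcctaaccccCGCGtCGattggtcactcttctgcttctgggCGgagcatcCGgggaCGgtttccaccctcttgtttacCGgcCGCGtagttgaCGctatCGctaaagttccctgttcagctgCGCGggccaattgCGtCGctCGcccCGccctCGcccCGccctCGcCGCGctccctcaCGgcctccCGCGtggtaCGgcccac

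The other 3 had no Kdm2a peak at the start in any list and the highest H3K36me2 coverage of the start among such genes. Cdh17, encoding an intestinal cadherin, has its stretch at chr4:11757897-11758146, Dthd1, encoding a death domain protein, at chr5:62813573-62813822, and Chrna9, encoding a nicotinic acetylcholine receptor subunit, at chr5:65934671-65934920, all on the plus strand. H3K36me2 covered 100%, 94.0% and 100% of these starts on average in WT, and 78.5%, 83.1% and 75.3% in KO. They held 0, 3 and 1 CG.
Cdh17: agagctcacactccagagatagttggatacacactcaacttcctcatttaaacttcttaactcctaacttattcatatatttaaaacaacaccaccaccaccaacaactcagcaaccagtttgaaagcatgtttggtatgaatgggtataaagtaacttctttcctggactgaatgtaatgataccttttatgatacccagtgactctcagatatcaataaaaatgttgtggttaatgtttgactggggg
Dthd1: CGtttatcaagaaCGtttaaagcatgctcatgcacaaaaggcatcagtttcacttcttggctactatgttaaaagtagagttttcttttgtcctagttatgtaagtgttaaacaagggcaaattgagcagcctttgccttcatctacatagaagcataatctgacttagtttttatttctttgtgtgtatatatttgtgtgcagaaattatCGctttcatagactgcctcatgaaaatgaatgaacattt
Chrna9: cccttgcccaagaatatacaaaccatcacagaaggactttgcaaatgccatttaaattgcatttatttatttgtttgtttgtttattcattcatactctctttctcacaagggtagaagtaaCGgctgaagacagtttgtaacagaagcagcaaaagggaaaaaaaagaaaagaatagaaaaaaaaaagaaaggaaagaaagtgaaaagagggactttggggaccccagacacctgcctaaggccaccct

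These 6 were chosen for their peaks, so they are examples and test nothing. Over all 5945 genes, the median number of CG in these 250 bases was 11, and 95.9% of the genes had at least 1. The median was 20 in the 1354 genes with a Kdm2a peak within 500 bp of the TSS in all 6 lists and 4 in the 2377 genes with none there in any list.

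The H3K36me2 libraries differed in how much of the genome their peaks covered, and one stood apart from its group. WT replicates 1, 2 and 3 had 85387, 89768 and 94136 peaks over 4.17%, 5.32% and 5.25% of the genome. KO replicate 1, from the male, had the most peaks of all libraries, 106720, over 3.63%, whereas KO replicates 2 and 3 had 37447 and 45180 over 1.59% and 1.44%. Across the 5945 genes, the body coverage of KO replicate 1 correlated with that of each WT library at r = 0.883 to 0.896 but with KO replicates 2 and 3 at 0.633 and 0.721 (across genes, which are not independent). Kdm2a peaks covered 1.11%, 0.770% and 0.877% of the genome in WT and 0.492%, 0.433% and 0.715% in KO. The number of reads behind each list is unknown, so that a lower coverage in KO cannot be told apart from a lower depth or yield of the ChIP. In a bulk population, fewer cells that carry the mark and less of it per cell cannot be told apart either.

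Along WT genes, H3K36me2 was highest before the gene and fell steadily through its body. The 5 kb before the TSS had a coverage of 14.0% ± 1.45 (SD, n = 3). It was 9.57% ± 0.724 in bin 1, 5.99% ± 0.601 in bin 5 and 4.25% ± 0.516 in bin 10, and it was again higher, 7.39% ± 0.962, in the 5 kb after the gene end. The body as a whole therefore had less of the mark than the flank before it, in each of the 6 libraries, by 6.88, 8.01 and 8.49 percentage points in WT and by 5.01, 2.94 and 2.75 in KO. The mean difference of body minus upstream flank was -5.68 ± 2.50 (SD, n = 6; exact two-sided sign-flip permutation p = 0.031, the smallest possible, adjusted p = 0.0417 over 4 such comparisons). Bins 4 to 7, the mid-body, exceeded bin 10 in 6 of 6 libraries by 1.04 ± 0.570 points (exact p = 0.031, adjusted p = 0.0417). The flank after the gene exceeded bin 10 in 6 of 6 libraries by 2.14 ± 1.24 points (exact p = 0.031, n = 6), a comparison added after the profile had been seen. With each library left out in turn, all 3 differences kept their sign, at an exact p of 0.0625, the smallest that 5 libraries allow. With peaks of a −log10 q of at least 2 they were -1.38, 0.0813 and 0.335, in the same direction in all 6 libraries.

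**Figure D1:**
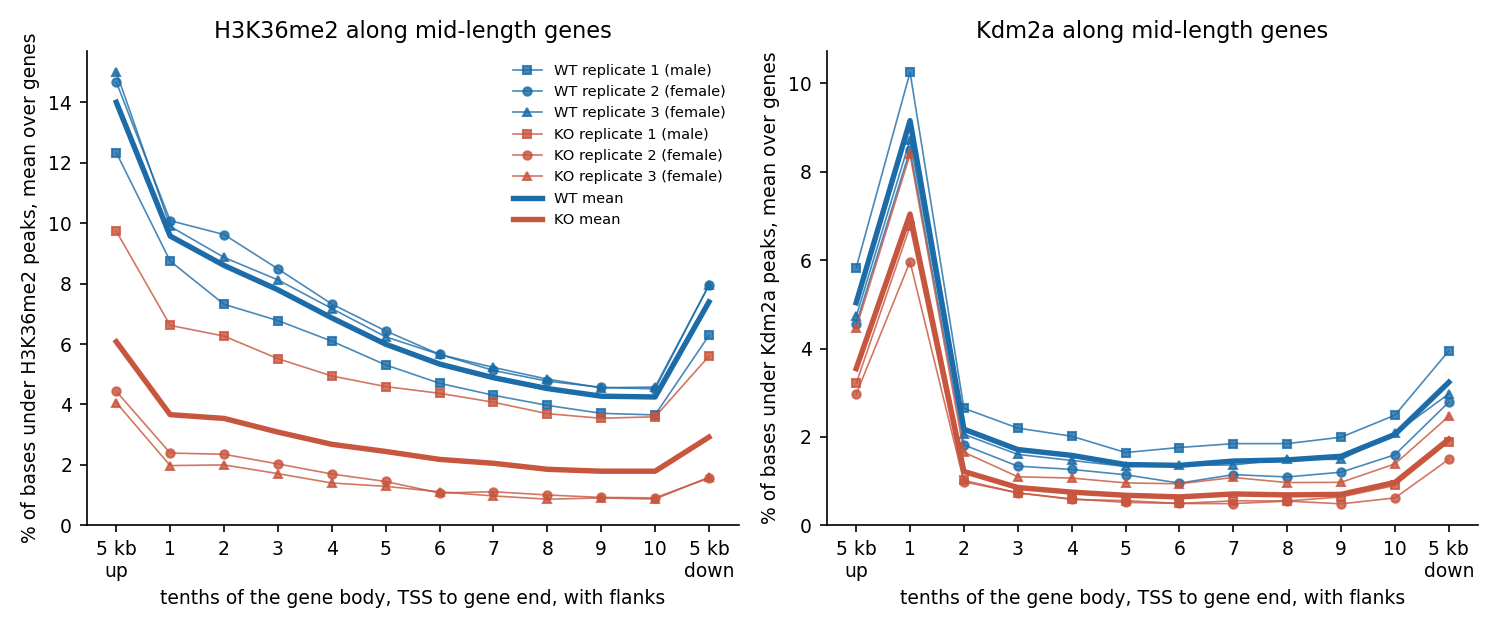
Percentage of bases under H3K36me2 (left) and Kdm2a (right) peaks, mean over 5945 genes, in 5 kb before the TSS, 10 bins of the body and 5 kb after the gene end. Thin lines are the 6 libraries of each antibody and thick lines are genotype means. H3K36me2 falls from 9.57% in bin 1 to 4.25% in bin 10 in WT, and KO replicate 1 lies close to WT replicate 1. Kdm2a coverage is highest in bin 1.

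The decline was seen in the share of genes as well as in their mean. Of the 4261 genes with an H3K36me2 peak in the body in any list, 3052 had a higher coverage in bins 1 to 5 than in bins 6 to 10, and 1209 the reverse. Their coverage was highest in bin 1 in 28.5% of these genes, in bin 2 in 15.0% and in bin 10 in 7.91%. The median difference of bins 1 to 5 minus bins 6 to 10 was 1.35 points. GC content moved little along the body, with a mean of 46.7% in bin 1, 43.7% in bin 5 and 44.4% in bin 10, whereas the observed to expected ratio of CpG fell from 0.358 in bin 1 to 0.195 in bin 2. Annotated repeats made up 23.3% of bin 1, 31.5% of bin 5 and 22.4% of bin 10, and exons 15.0%, 8.29% and 49.8%. The part of mappability, CpG, repeats or exon content in the profile was not tested.

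H3K36me2 was unevenly spread over the genes. A body peak was present in all 6 lists in 1253 genes (21.1%) and in none in 1684 (28.3%). The mean body coverage over the 6 lists had a median of 1.07%, a 90th percentile of 13.2% and a maximum of 69.1%. It reached 20% in 296 genes (4.98%) and 50% in 10. The decline was seen in each length class within this range. Genes of 20 to 40 kb (3181 genes) went from 9.69% in bin 1 to 4.37% in bin 10 in WT, those of 40 to 70 kb (1879) from 9.40% to 3.96%, and those of 70 to 100 kb (885) from 9.53% to 4.40%. The share of genes with a body peak rose with length, at 50.2%, 58.9% and 67.4% in WT.

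In KO B cells the profile was lower in every bin, and it too declined from the upstream flank to bin 10. Coverage was 6.08% ± 3.17 before the TSS, 3.66% ± 2.57 in bin 1, 2.44% ± 1.86 in bin 5, 1.79% ± 1.56 in bin 10 and 2.92% ± 2.32 after the gene end (SD, n = 3). The ratio of the KO to the WT mean lay between 0.383 (bin 1) and 0.434 (upstream flank) over the 12 positions. All KO libraries lay below all WT libraries at each of the 12 positions, but in bin 10 KO replicate 1 (3.59%) was almost at the level of WT replicate 1 (3.65%). This held at 1 of the 12 positions with peaks of a −log10 q of at least 2, and at 3 with values divided by the coverage of the genome. Exact two-sided permutation tests of 3 libraries against 3 gave p = 0.1 at every position, the smallest possible, so that no position could pass 0.05.

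Over the whole body, coverage was 5.46%, 6.66% and 6.51% in the WT libraries and 4.72%, 1.49% and 1.31% in the KO libraries. The groups did not overlap, and KO replicate 1 was nearer to WT than to the other KO libraries. KO minus WT was -3.70 points (exact permutation p = 0.1, adjusted p = 0.15 over 6 comparisons), and -4.81 without KO replicate 1. Between the males the difference was -0.737, and between the females it was -5.18. Sex and the standing of this library cannot be told apart, with 1 male per group. Divided by each library's coverage of the whole genome, the body values differed by -0.217 (exact permutation p = 0.3). Values divided in this way are multiples of a library's genome coverage, so their size cannot be set against percentage points. Over the whole genome, coverage was 4.92% in WT and 2.22% in KO, a ratio of 0.452. The difference in the bodies was -0.641 (exact permutation p = 0.2) with peaks of a −log10 q of at least 2, where the groups overlapped, and -1.59 (exact permutation p = 0.1) when each list was cut to the same number of peaks, the strongest by fold.

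The outline of the profile did not differ detectably. Bin 1 over the mid-body gave 1.71, 1.64 and 1.63 in WT (mean 1.66 ± 0.0453) against 1.47, 1.80 and 1.66 in KO (mean 1.64 ± 0.162), and the groups overlapped (difference -0.0208, exact permutation p = 0.9). Bin 10 over the mid-body was 0.735 ± 0.0187 in WT and 0.737 ± 0.0587 in KO (difference 0.00176, exact permutation p = 1). The KO spread in both ratios was larger than either difference, and 3 libraries per group do not show that the outlines were alike.

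Genes were then split by Kdm2a at the start, a split that used the Kdm2a libraries only. The 1354 genes with Kdm2a within 500 bp of the TSS in all 6 lists (22.8%) are called bound, the 2377 with none there in any list (39.98%) unbound, and 2214 lay between. These names refer to the start only. No more than 1415 genes had no Kdm2a peak in the body in any list, so that some unbound genes had Kdm2a further along. A CpG-rich start (at least 50% GC and a CpG observed to expected ratio of at least 0.6 in this 1 kb) was found in 1256 of the bound genes (92.8%), 397 of the unbound (16.7%) and 3168 of all (53.3%).

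The decline of H3K36me2 was steeper in genes with Kdm2a at the start. In WT, bound genes had a coverage of 25.7% ± 1.97 before the TSS, 13.1% ± 0.360 in bin 1 and 2.90% ± 0.309 in bin 10, and 9.36% ± 1.26 after the gene end. Unbound genes had 4.87% ± 0.711, 4.72% ± 0.533, 3.78% ± 0.662 and 4.62% ± 0.610 at the same positions, an almost level profile. The same positions had 11.0%, 4.45%, 1.33% and 3.62% in bound and 2.19%, 2.24%, 1.72% and 1.98% in unbound genes in KO. Genes with a Kdm2a start in 1 to 5 lists had an upstream coverage between the other two, 16.6% in WT and 7.23% in KO. Of the bound genes with a body peak, 1061 of 1226 were higher in bins 1 to 5, against 599 of 1143 unbound genes. Bins 1 to 5 exceeded bins 6 to 10 by 5.73, 6.89 and 6.03 points in the WT libraries and 3.53, 1.75 and 1.32 in the KO libraries over bound genes. Over unbound genes the WT libraries had an excess of 0.562, 0.747 and 0.663 and the KO libraries of 0.337, 0.306 and 0.283, below the value of bound genes in each library.

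At the resolution of 1 kb, bound starts had a narrow gap in H3K36me2 at the TSS with high coverage just before it. From 2 to 1 kb before the TSS, coverage was 32% ± 1.08 in WT and 13.2% ± 6.04 in KO. It dropped to 17.1% and 5.93% in the last 1 kb before the TSS and to 8.54% ± 0.621 and 2.15% ± 2.68 in the first 1 kb of the gene. From 1 to 2 kb it was again 14.7% and 5.11%, and by 19 to 20 kb it had declined to 7.32% and 2.97%. The gap was present in each of the 6 libraries, with 9.23%, 8.04% and 8.34% in the first 1 kb in WT against 5.24%, 0.435% and 0.766% in KO. Kdm2a near the TSS was fixed by the choice of these genes, and is given as a description, with 43.6% in WT and 38.0% in KO in the last 1 kb before the TSS and 61.3% and 56.1% in the first 1 kb after it. Between 1 and 2 kb it was down to 14.0% and 9.69%. Unbound starts had no gap, with an H3K36me2 coverage in WT of 5.42%, 5.14%, 4.79% and 4.64% over the same 4 windows and 2.42%, 2.23%, 2.21% and 2.34% in KO.

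**Figure D2:**
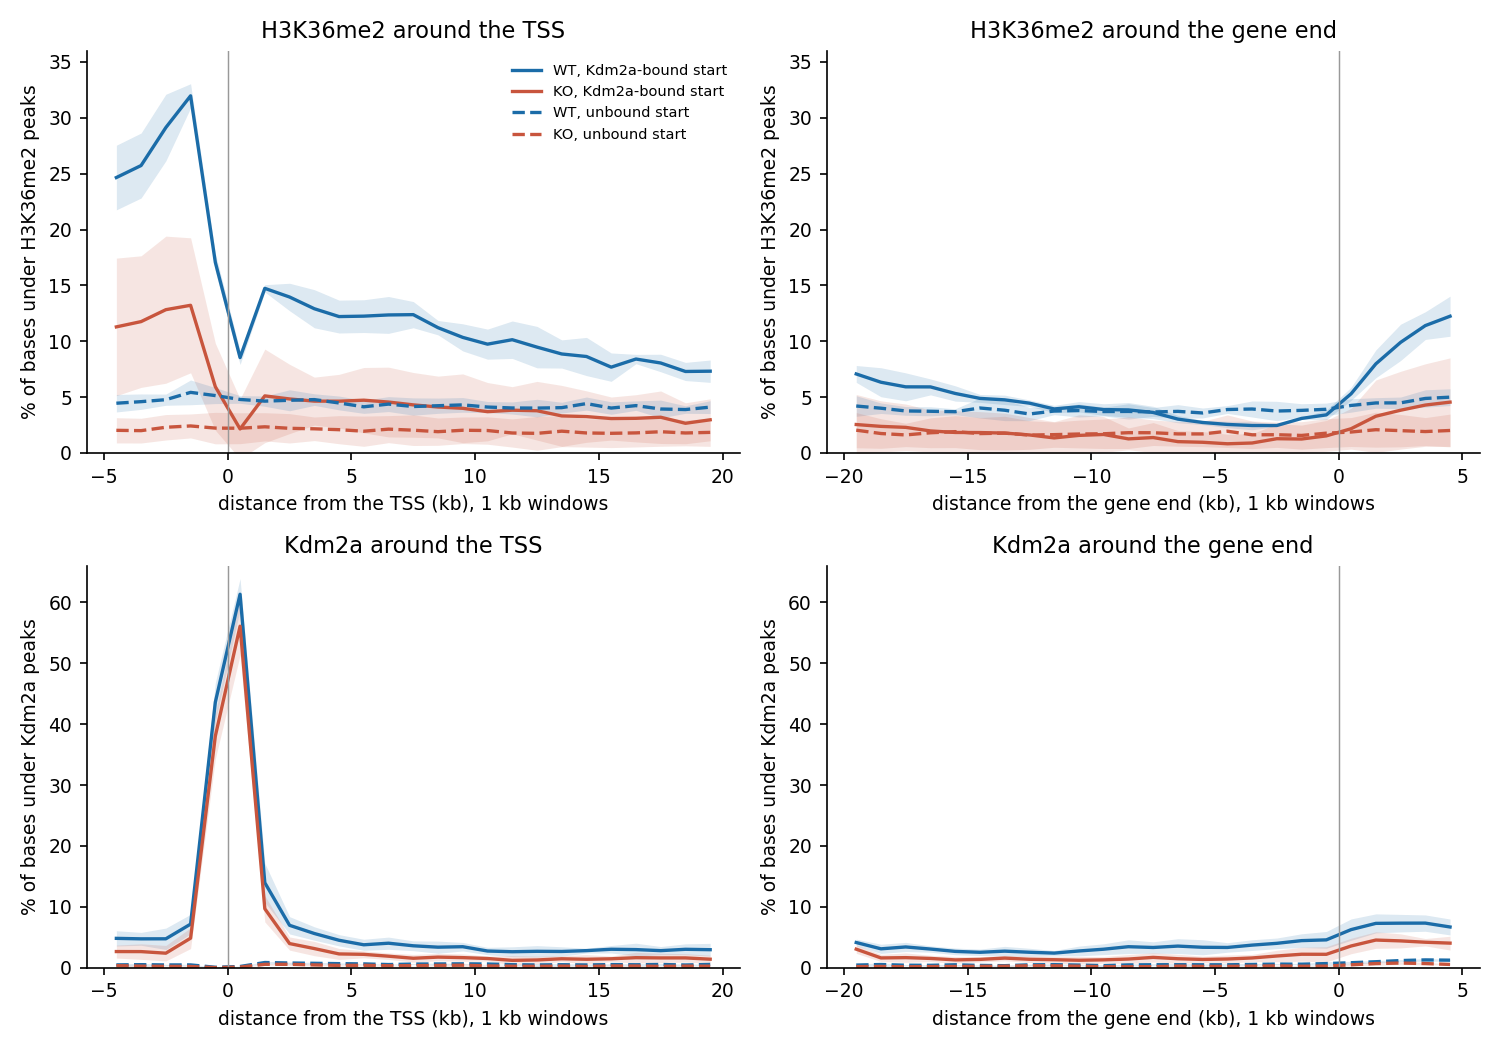
Percentage of bases under peaks in 1 kb windows around the TSS (left) and the gene end (right), for H3K36me2 (top) and Kdm2a (bottom). Solid lines are the 1354 genes with Kdm2a at the start in all 6 lists and dashed lines the 2377 genes with none there. Blue is WT and red KO, with bands of ± SD over 3 libraries. In bound genes H3K36me2 is at 32% before the TSS in WT and at 8.54% just after it, where Kdm2a is at 61.3%.

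The gene end of bound genes had its own minimum. H3K36me2 fell from 7.07% at 20 to 19 kb before the end to 2.46% ± 0.384 at 4 to 3 kb before it in WT, and from 2.54% to 0.891% ± 0.829 in KO. Beyond the end it rose to 5.29% in the first 1 kb and 12.2% ± 1.79 at 4 to 5 kb in WT, and to 2.17% and 4.55% ± 3.96 in KO. Unbound genes stayed between 3.49% and 4.99% in WT over the windows from 20 kb before to 5 kb after the end. The rise after the end was also seen without a neighbouring gene. In the 4332 genes with no other protein-coding gene within 5 kb downstream, the flank had 7.54% in WT and bin 10 had 4.06%. Among genes with no annotated gene of any kind within 5 kb on either side, 390 were bound and had 31.7% before the TSS, 13.5% in bin 1, 2.6% in bin 10 and 11.0% after the end in WT. The 1312 unbound genes of this kind had 3.95%, 3.61%, 3.02% and 3.76%.

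Bound genes had more H3K36me2 in the body as a whole, while at the very start the difference did not pass the test. Body coverage was higher in bound than in unbound genes by 3.05, 3.33 and 2.93 points in WT and by 1.72, 0.428 and 0.259 in KO (mean 1.95 ± 1.36, n = 6; exact sign-flip permutation p = 0.031, adjusted p = 0.0417). With peaks of a −log10 q of at least 2, the mean difference was 0.0139 and the exact permutation p was 0.875, so the call was lost there. In the first 1 kb after the TSS, bound minus unbound came to 4.83, 2.99 and 3.42 in WT, to 1.44, -1.10 and -0.530 in KO, and did not pass the test (mean 1.84 ± 2.33, higher in 4 of 6 libraries, exact permutation p = 0.15625, n = 6).

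CpG content and Kdm2a at the start were closely linked, so the genes were also split by both. Among CpG-rich starts, the 1256 bound genes had 24.9% before the TSS and 6.79% in the body in WT, and the 397 unbound genes 1.2% and 2.11%. In KO these values were 10.6% and 2.54% against 0.572% and 0.878%. Among CpG-poor starts, the 98 bound genes had 36% and 11.9% in WT, and the 1980 unbound genes 5.61% and 4.45%. In KO they were 15.8% and 4.2% against 2.52% and 2.05%. The CpG-rich unbound genes were thus the lowest of the 4 classes and the CpG-poor bound genes the highest, before the TSS and in the body, in both genotype means. Restricted to CpG-rich starts, bound exceeded unbound in all 6 libraries, by 4.07 points in the first 1 kb and by 3.17 in the body (exact sign-flip permutation p = 0.031 for each, n = 6). CpG-rich unbound genes also ran the other way along the body, from 1.22% ± 0.382 in bin 1 to 3.08% ± 0.606 in bin 10 in WT. How active these genes were was not measured, and its part in the split was not tested.

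**Figure D3:**
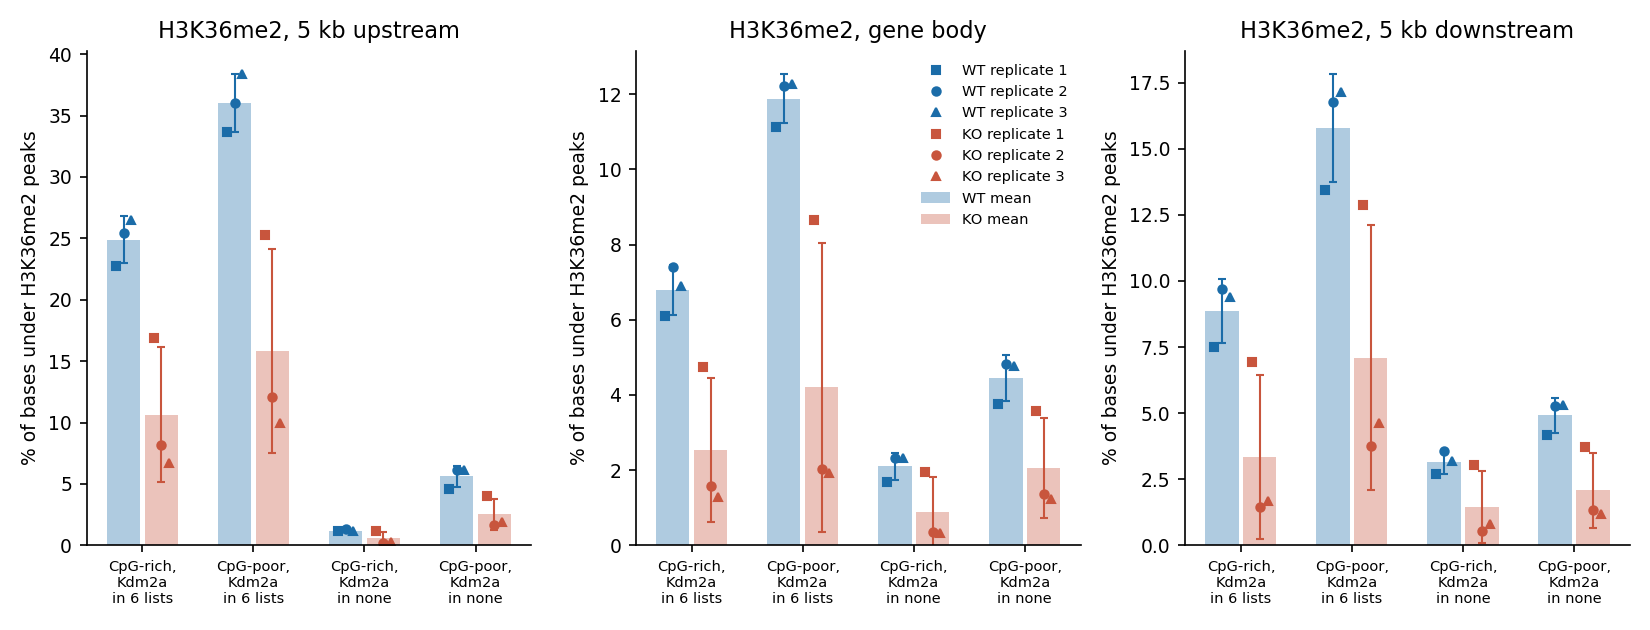
Percentage of bases under H3K36me2 peaks in 5 kb before the TSS, the body and 5 kb after the gene end, for 4 classes of start. Bars are means, error bars SD and symbols the 3 libraries of each genotype. CpG-poor starts with Kdm2a in all 6 lists are highest (36% before the TSS in WT) and CpG-rich starts without Kdm2a lowest (1.2%).

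Kdm2a coverage along the same genes was highest in bin 1. Coverage in WT was 5.04% ± 0.691 before the TSS, 9.16% ± 0.953 in bin 1, 2.18% ± 0.426 in bin 2, between 1.36% and 1.71% in bins 3 to 9, 2.06% ± 0.449 in bin 10 and 3.24% ± 0.623 after the end. The small rise in bin 10 over the mid-body was present in 6 of 6 libraries, at 0.445 ± 0.226 points (exact sign-flip permutation p = 0.031, n = 6, added after the profile had been seen). It was 0.143 where no other protein-coding gene lay within 5 kb on either side, and there it no longer passed the test (exact permutation p = 0.0625).

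Kdm2a was lower in KO in every bin, with the largest difference in percentage points in bin 1 and the KO to WT ratio nearest to 1 there. Bin 1 had 10.3%, 8.5% and 8.73% in WT and 6.77%, 5.97% and 8.39% in KO, with KO replicate 3 just below the lowest WT library. KO minus WT was -2.11 points (exact permutation p = 0.1, adjusted p = 0.15, n = 3). Divided by each library's coverage of the whole genome, the difference had the other sign, at 3.01 in multiples of that coverage. Bins 2 to 10 had 1.64% ± 0.386 in WT and 0.802% ± 0.283 in KO (difference -0.838, exact permutation p = 0.1, adjusted p = 0.15). The ratio of the KO to the WT mean was 0.769 in bin 1 and 0.448 to 0.560 in bins 2 to 10. As a share of all Kdm2a-covered bases of the bodies, bin 1 held 35.7%, 42.4% and 38.0% in WT and 52.8%, 52.2% and 45.3% in KO. Every KO library was above every WT library, by 11.4 percentage points on average (exact permutation p = 0.1, the smallest possible, adjusted p = 0.15). With lists cut to the same number of peaks, KO minus WT was -1.06 points in bin 1 (exact permutation p = 0.3) and 4.57 for the share (exact permutation p = 0.1). A Kdm2a peak at the start was present in 46.4%, 45.4% and 45.3% of genes in WT and in 38.7%, 37.5% and 44.2% in KO.

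Gene by gene, no H3K36me2 difference passed the test. A model across all genes (limma, percent of the body under peaks, Benjamini-Hochberg) tested 8525 protein-coding genes of at least 2 kb, 3183 of them among the mid-length genes. It called 0 lower and 0 higher in KO at an adjusted p under 0.05, with 0% called among all genes tested in either direction, and the smallest adjusted p was 0.160. At an unadjusted p under 0.05 there were 827 mid-length genes, 826 of them lower in KO, among 2241 of the 8525 tested, 2236 of them lower. Every KO library lay below every WT library in 1056 of the 3183 (33.2%), against 33.9% of all genes tested, and above in 5, against 0.117%. The mean was lower in KO in 2958 (92.9%), with a median difference of -4.30 points, against 93.4% and -5.30 over all genes tested. Divided by the coverage of the genome, it was lower in 2151 mid-length genes (67.6%) and higher in 1032. Without KO replicate 1 the same model called 289 mid-length genes, all lower in KO, with the 2 remaining KO libraries, among 783 called over all genes tested. With values divided by the coverage of the genome, 386 mid-length genes did not overlap with KO lower and 50 with KO higher, so that the lower share went from 99.5% to 88.5%. Over all genes tested these numbers were 1048 and 134.

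For Kdm2a in bin 1, 8871 genes were tested and 2912 were mid-length. Calls numbered 0 lower and 0 higher, again 0% of all genes tested in either direction, with a smallest adjusted p of 0.17 in limma. At an unadjusted p under 0.05 there were 178, of which 154 were lower, among 561 of the 8871 tested, 502 of them lower. All KO libraries lay below all WT libraries in 263 genes (9.03%), against 9.45% of all genes tested, and above in 53, against 1.59%. Divided by the coverage of the genome the direction turned, with 87 lower and 386 higher, and the lower share went from 83.2% to 18.4%. It turned over all genes tested too, with 304 lower and 1507 higher.

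The genes with the most H3K36me2 over the body were covered over most of their length in WT. Fam83f, encoding a member of the FAM83 family (chr15:80671847-80700425), had a body coverage of 93.1%, 76.4% and 85.4% in the WT libraries and 70.4%, 59.2% and 30.2% in the KO libraries. Pigr, the receptor that carries IgA and IgM across epithelia (chr1:130826684-130852249), had 65.2%, 85.5% and 94.98% in WT and 54.0%, 59.5% and 52.0% in KO. In both genes the groups did not overlap. Slc12a3, a renal sodium chloride cotransporter (chr8:94329201-94366214), had 68.5%, 79.5% and 80.6% against 82.2%, 35.1% and 19.97%, with KO replicate 1 above all WT libraries. Itgax, the integrin CD11c (chr7:128129547-128150657), had 69.2%, 74.0% and 83.3% against 60.3%, 31.9% and 21.1%. In limma their differences ranged from -37.7 ± 14.4 (SE) for Itgax to -26.7 ± 14.1 for Pigr, with adjusted p from 0.167 to 0.25. All 4 differences turned positive when values were divided by the coverage of the genome. They were then 1.67 for Itgax to 12.9 for Pigr, in multiples of that coverage. None of the 4 had Kdm2a at its start in all 6 lists.

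The largest falls from WT to KO, among genes without overlap, were in Endou, Rab44, Adamtsl2, Rsph1 and Padi2, which were chosen for this difference. Endou, a poly(U)-specific endoribonuclease (chr15:97711015-97731339), had 69.7%, 68.9% and 76.7% in WT and 43.2%, 6.74% and 8.35% in KO. Rab44, a member of the Rab GTPases (chr17:29114145-29148980), had 65.3%, 73.2% and 75.4% against 39.02%, 13.1% and 9.87%. Adamtsl2, an extracellular matrix protein (chr2:27079379-27108981), had 62.4%, 77.8% and 60% against 53.3%, 7.44% and 4.03%. The WT and KO means were 58.8% and 15.6% in Rsph1, a radial spoke protein of cilia (chr17:31255019-31277383), and 62.0% and 19.7% in Padi2, which converts arginine to citrulline (chr4:140906344-140952586). In each of the 5, KO replicates 2 and 3 were far below KO replicate 1. Their differences in limma were -52.3 ± 13.2 (SE) for Endou to -42.4 ± 13.6 for Padi2, at adjusted p of 0.160 to 0.162. Divided by the coverage of the genome, the differences were -7.44 for Endou to -5.63 for Rsph1, in multiples of that coverage and not points. The adjusted p in limma rose to 0.491 for Rsph1 and to 0.665 for Adamtsl2 and Padi2.

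Every KO library lay above every WT library in 5 of the 5945 genes, and their levels were low. Erich6, a gene of little known function (chr3:58616300-58637207), had 0%, 3.48% and 2.42% in WT and 17%, 8.70% and 4.90% in KO. Purg, a nucleic acid-binding protein of the PUR family (chr8:33386325-33417467), had 4.15%, 5.52% and 5.97% against 6.72%, 8.51% and 12.01%. In 4930579F01Rik the means were 0.387% and 2.18%, in Gpr35, a G protein-coupled receptor, 0.210% and 1.98%, and in Atr, a kinase of the DNA damage response, 0.0987% and 0.534%. Their adjusted p in limma ran from 0.195 for Erich6 to 0.441 for Atr.

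The genes most skewed to either side are given as examples, chosen for their slope. Among the 296 genes with a mean body coverage of at least 20%, 180 were higher in bins 1 to 5 and 116 in bins 6 to 10. In Spi1, encoding the transcription factor PU.1 (chr2:91082390-91115756), WT coverage was 99.1% in bin 1, 91.8% in bin 4 and 5.02% in bin 6, with nothing in bins 7 to 10. KO replicate 1 had a body coverage of 45.2% there, as in WT (46.7%, 39.9% and 39.7%), whereas KO replicate 2 had 1.44% and KO replicate 3 had 16.5%. Cytip, which regulates integrin adhesion in leukocytes (chr2:58129137-58195532), and Idh2, the mitochondrial isocitrate dehydrogenase (chr7:80094846-80115392), had the same order with a step between bins 5 and 7. Beyond its end Cytip was covered again, at 68.1% in WT and 58.3% in KO. Idh2 had 40.9%, 50.5% and 50.1% in WT and 28.7%, 9.34% and 8.73% in KO, without overlap, and Kdm2a at its start in all 6 lists.

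The reverse order was seen in Gucy2c, an intestinal receptor guanylate cyclase (chr6:136697284-136781765), Rpl11, a ribosomal protein (chr4:136028265-136053428), and M1ap, a meiosis protein (chr6:82946902-83030309). M1ap had no WT coverage in bins 1 to 5 and 81.5% in bin 7. Rpl11 had Kdm2a at its start in all 6 lists, with 100%, 77.3% and 32.7% of bin 1 in WT and 78.2%, 36.2% and 33.8% in KO. Its H3K36me2 in WT was 5.92% in bin 1, 0% in bins 2 to 4 and 92.0% in bin 10. Gucy2c and M1ap had no Kdm2a at the start in any list. The 6 genes were chosen for their slope over all 6 lists.

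**Figure D4:**
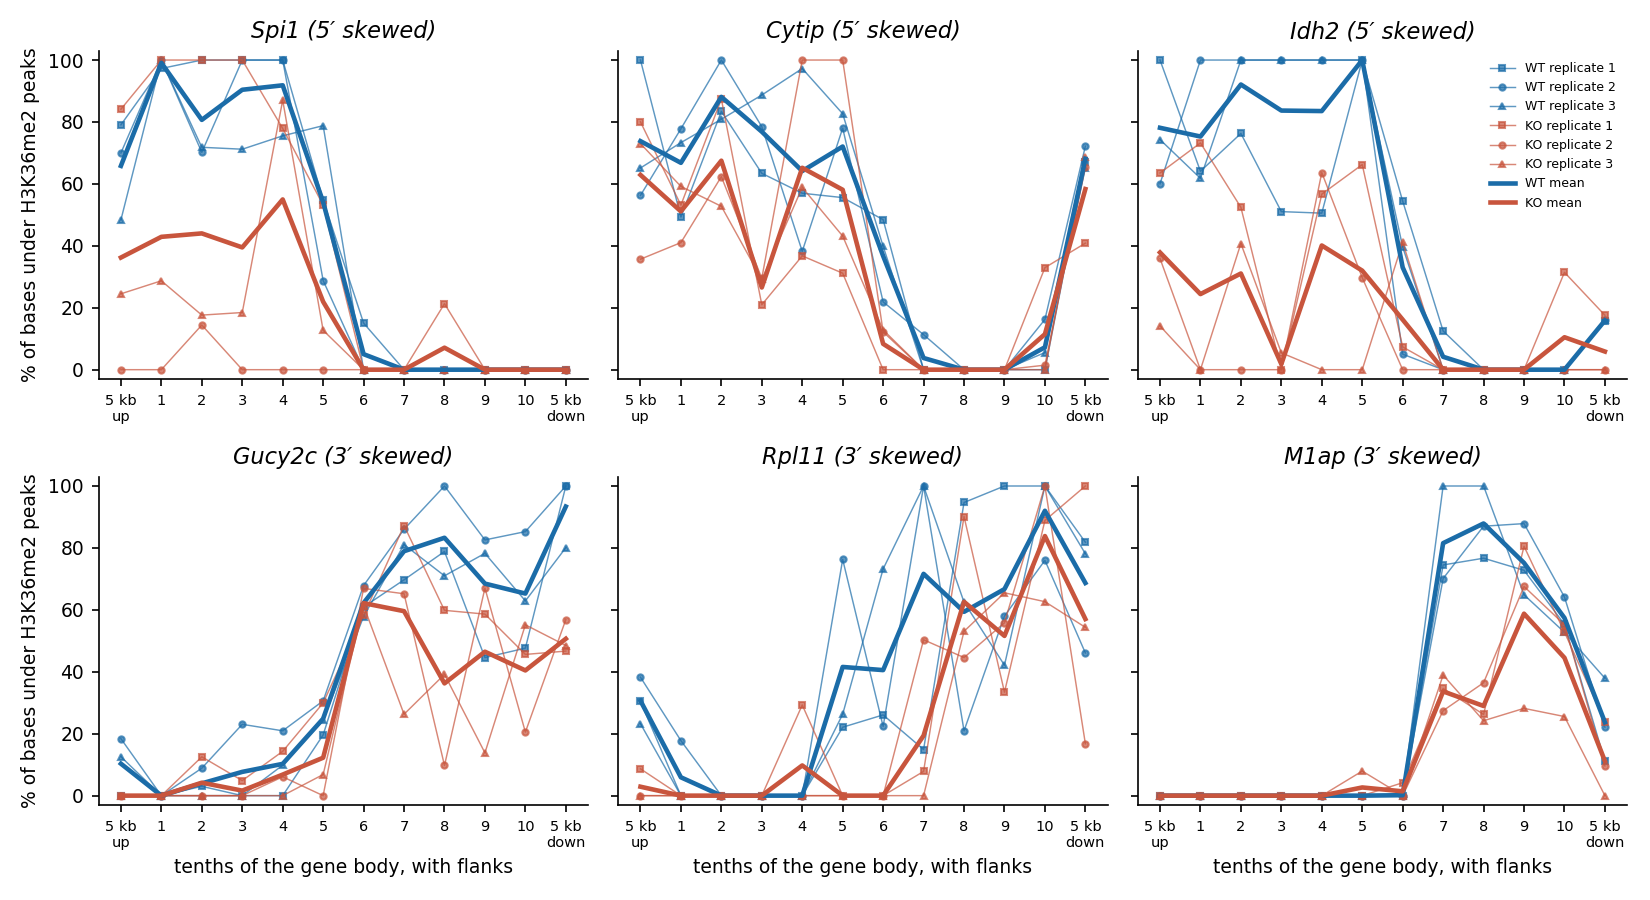
Percentage of bases under H3K36me2 peaks in each bin and flank of the 3 genes most skewed to the 5' side (top) and the 3 most skewed to the 3' side (bottom), among genes with a mean body coverage of at least 20%. Thin lines are libraries and thick lines genotype means. In the top row the WT means are at most 4.17% in bins 7 to 9, and M1ap rises from near 0 to 81.5% in WT at bin 7.

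The highest Kdm2a in bin 1 was found at Dedd2, Rcc2, Chd4, Baz2a and Setd1b. Dedd2, a death effector domain protein (chr7:25199915-25220615), had 100% in each of the 6 libraries. Rcc2, a regulator of mitosis (chr4:140700541-140723220), had 100%, 100% and 74.6% in WT and 100% in each KO library. Chd4, the ATPase of the NuRD complex (chr6:125095981-125130591), Baz2a, a subunit of the NoRC silencing complex (chr10:128091577-128129303), and Setd1b, an H3K4 methyltransferase (chr5:123142193-123168629), had WT means of 100%, 99.2% and 100% and KO means of 89.9%, 88.7% and 85.4%. H3K36me2 over the bodies of these 5 was low, at most 18.5% in any library, in WT replicate 3 at Dedd2. Kdm2a at all 5 was at the start in all 6 lists.

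Genes whose Kdm2a groups did not overlap were also taken by size of difference. The largest falls were in Kcnn1, a calcium-activated potassium channel (chr8:70842049-70863258), Pip4k2b, a phosphatidylinositol phosphate kinase (chr11:97715157-97744704), and Lgals9, the lectin galectin-9 (chr11:78962974-78984946). Kcnn1 had 93.6%, 98.3% and 93.9% of bin 1 in WT and 0%, 27.3% and 88.6% in KO, so that KO replicate 3 was near the WT libraries. Pip4k2b had 98.4%, 64.9% and 40.4% against 8.12%, 9.2% and 25.04%. Means at Lgals9 were 70.5% and 18.3%. The largest rises were in Pld3, a lysosomal nuclease, with means of 13.1% and 44.9%, in Tnfrsf23, a decoy receptor of the TNF receptor family, with 0% and 26.5%, and in 1190002N15Rik, with 7.07% and 33.0%. In limma the 6 had adjusted p from 0.643 for Pld3 to 0.797 for Kcnn1 and Tnfrsf23.

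Gene lists showed where the mark was high and where Kdm2a was. Each list is given by its count and median, beside a median of 1.07% over the 5945 genes (mean 6.21% in WT and 2.51% in KO). No gene of any list was called by limma, and the number of tested genes of a list with KO below WT without overlap is to be read against the 33.9% of all genes tested. T cell genes, 11 of the 21 listed, had the highest level, with a median of 23.4% and means of 27.9%, 32.6% and 31.9% in WT and 26.8%, 8.92% and 8.77% in KO. A body peak was present in all 6 lists in 8 of them, against 21.1% of all genes, and none had Kdm2a at the start in all 6 lists. Of the 9 tested, 3 had KO below WT without overlap, against 33.9% of all genes tested. Tcf7 (56.5% in WT and 18.7% in KO), which encodes the transcription factor TCF1, Cd5 (44.6% and 15.3%), a surface receptor that some B cells also carry, and Ctla4 (44.3% and 24.5%), an inhibitory receptor, were among the highest. Zap70, a kinase of the T cell receptor, had 33.2%, 46.9% and 32.2% in WT and 32.5%, 5.02% and 7.23% in KO, and the kinase Lck 20.8% and 12.4% on average. Cd4 itself was at 0.371% and 0%, and Bcl11b, a T cell transcription factor, was at 0 in all 6 libraries. Icos had the higher mean in KO, 2.45% against 0.497% in WT, and its groups overlapped. A peak is not a measure of expression, and the part of remaining T cells in these values was not tested.

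B cell genes, 21 of 58, had a median of 2.85% and means of 8.09% ± 1.41 in WT and 2.91% ± 2.69 in KO. Of the 15 tested, KO lay below WT without overlap in 4, and above in 0, against 33.9% and 0.117% of all genes tested. Kdm2a was at the start in all 6 lists in 10 of 21 (47.6%), against 22.8% of all genes. Foxo1, a transcription factor of B cell development and germinal centres, had 33.3%, 42.3% and 41.1% in WT and 22.2%, 6.64% and 4.82% in KO. Rasgrp3, a Ras activator downstream of the B cell receptor, had 25.7% in WT and 14.9% in KO, and Tnfrsf13b, the receptor TACI, 21.9% and 5.82%. The ectoenzyme Cd38 had 23.2% and 7.06%, and Syk, a kinase of the B cell receptor, 12.5% and 5.59%. The other 16 were below 8% in either genotype mean. Among them Pou2af1 had the higher mean in KO, 3.04% against 0% in WT. Ikzf3 and Ikzf1, transcription factors of lymphocytes, had 4.65% and 4.00% in WT and 1.52% and 1.03% in KO, the adaptor Blnk had 0.989% and 0.317%, and the kinase Btk, on chromosome X, had 0.198% and 0%. Foxo1, Rasgrp3, Tnfrsf13b, Cd38, Syk and Pou2af1 here were picked after their values were seen. So were Tcf7, Cd5, Ctla4, Bcl11b and Icos among the T cell genes, and Cpt1a, Slc2a3 and Pkm in the lists that follow.

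The enzymes and readers of H3K36 methylation, 8 of 18, had a median of 3.27%, and 3 of the 7 tested had KO below WT without overlap, against 33.9% of all genes tested. Setd2, which makes H3K36me3, had 3.84% in WT and 0.471% in KO. Smyd2, a lysine methyltransferase, had 6.53% and 1.85%, with KO replicate 1 (5.54%) inside the WT range. Kdm2a, whose own gene is a member (chr19:4314419-4398285), had a low H3K36me2 of 0.508% and 0.378% and was under Kdm2a peaks over 15.4% and 13.8% of bin 1. The gene of the demethylase Kdm4a had no H3K36me2 peak in its body in any library.

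Genes of mitochondrial proteins, 28 of 61, had a median of 0.828% and means of 4.33% and 1.4%, and 11 (39.3%) had Kdm2a at the start in all 6 lists. Of the 13 tested, 3 had KO below WT without overlap, against 33.9% of all genes tested. Idh2 (above) was the highest, followed by Cpt1a, an enzyme that readies fatty acids for import into mitochondria, with 12.6% in WT and 2.44% in KO. Opa1 and Mfn1, of mitochondrial fusion, had 0.0256% and 0.962% in WT, while Mfn2 and the fission GTPase Dnm1l had none in any library. Hypoxia and glycolysis genes, 20 of 36, had a median of 1.01%, and 10 (50.0%) had Kdm2a at the start in all 6 lists. Of the 9 tested, 2 had KO below WT without overlap, against the same 33.9%. The glucose transporter Slc2a3 had 28.3%, 30.3% and 29.0% in WT and 20.5%, 7.05% and 7.90% in KO. The oxygen sensors Egln1 and Egln3 had 4.14% and 10.2% in WT and 0.685% and 5.62% in KO. Epas1 and Arnt, subunits of hypoxia-inducible factors, had 1.77% and 4.01% in WT and 0.538% and 2.10% in KO. Pkm, which makes pyruvate in glycolysis, had Kdm2a over 100% of bin 1 in WT and 84.0% in KO, and no H3K36me2 in any library.

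Splicing and transcription machinery genes, 29 of 43, had a median of 0.232% with Kdm2a at the start in all 6 lists in 19 (65.5%), the highest share of the lists. Polr2a, the largest subunit of RNA polymerase II, had 3.25%, 3.98% and 0% in WT and 0.791%, 0% and 0% in KO. DNA replication and cell cycle genes, 19 of 52, had a median of 0.813% and Kdm2a in all 6 lists in 9 (47.4%). The replication factor Mcm10 had 2.07%, 5.91% and 6.37% in WT and 5.20%, 0% and 0% in KO. KO lay below WT without overlap in 2 of the 9 tested genes of the first of these lists and 2 of the 8 of the second, again against 33.9%. Neuron, muscle and liver genes, 22 of 40, had a median of 0%, no body peak in any list in 14, and no Kdm2a at the start in any list in 20. The potassium channel gene Kcnc1 (16.9% in WT and 8.56% in KO), Gad1, which makes GABA (9.04% and 4.19%), and Mybpc1, a muscle protein gene (8.70% and 2.38%), were exceptions picked after their values were seen, each with a peak in all 6 lists. The synaptic protein gene Snap25 had none. Of the 2 myeloid genes in the length range (of 18 listed), Marco had none and Cybb 1.11% in 1 library.

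**Figure D5:**
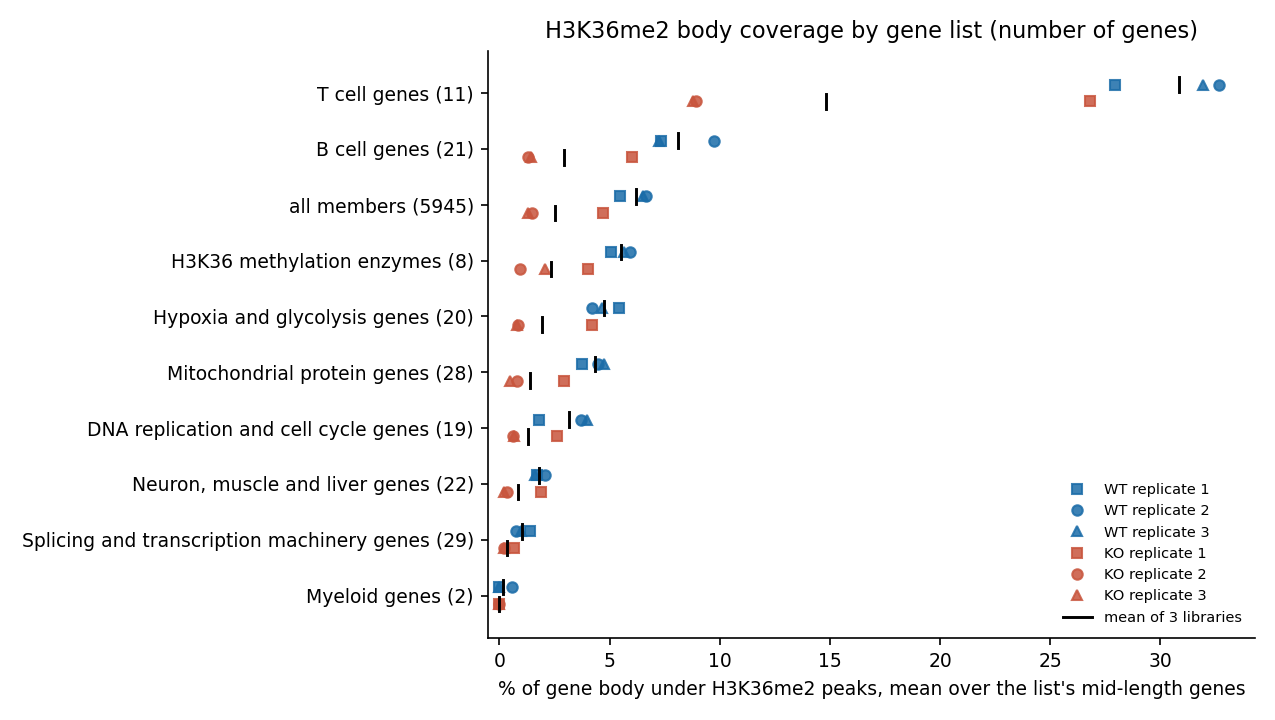
Mean percentage of the gene body under H3K36me2 peaks, for each gene list and for all 5945 genes, with 1 symbol per library and a bar at each genotype mean. Numbers in brackets are mid-length genes of the list. T cell genes are highest (WT 27.9% to 32.6%), and KO replicate 1 is near the WT libraries in most lists.

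Genes on the sex chromosomes were almost free of H3K36me2 peaks. The 230 genes on chromosome X had a body coverage of 0.0222%, 0.331% and 0.257% in WT and 0.0814%, 0.0987% and 0.0654% in KO, against 6.55% and 2.64% on average for the 5631 autosomal genes. Any body peak was found in 1.74%, 14.3% and 12.2% of X genes in WT and in 4.78%, 6.09% and 5.22% in KO. Over the 84 genes on chromosome Y the highest value was 0.273%. How well reads map to these chromosomes was not tested.

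Compared with other lengths, mid-length genes were close in level and differed in the ratios of the first and last bins to the mid-body. Body coverage was 5.70% in WT and 2.19% in KO in the 7982 genes of 2 to 20 kb, lower than in mid-length genes in 6 of 6 libraries by 0.415 ± 0.225 points (exact sign-flip permutation p = 0.031, adjusted p = 0.0341 over 12 comparisons). In the 1973 genes over 100 kb it was 6.55% and 2.77%, and mid-length genes were higher in 2 of 6 libraries only (exact permutation p = 0.125, adjusted p = 0.125). The ratio of bin 1 to the mid-body was 1.47 in WT in the shorter genes and 1.28 in the longer, against 1.66, with mid-length genes higher in 6 of 6 libraries in both comparisons (exact permutation p = 0.031, adjusted p = 0.0341). The ratio of bin 10 to the mid-body was 0.876 in WT in the shorter genes and 0.633 in the longer, against 0.735. Mid-length genes were below the shorter genes and above the longer ones in 6 of 6 libraries (exact permutation p = 0.031, adjusted p = 0.0341 for each). A bin covers fewer bases in a shorter gene, so that the ratios are taken over different distances from the TSS.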

How the data were processed

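H3K36me2 and Kdm2a ChIP-seq of cultured B cells gave 12 peak lists, 3 per genotype and antibody. Per the labels and the study's methods, the authors ran nf-core/chipseq, which mapped reads onto GRCm38 (BWA) and called broad peaks (MACS2) for each library by itself. Versions of BWA and MACS2 are not given in the sources used here. The deposited lists hold, beside the position of each of 590705 peaks, a fold enrichment (a ratio over background, used only to take equal numbers of peaks) and a −log10 q (used only for the stricter alternative, at least 2). They hold no read counts, so the depth is unknown and no interval or floor from counting was possible. Broad calling merges nearby enriched stretches, and a list with fewer reads tends to hold fewer bases under peaks.

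Genes came from GENCODE M21 on GRCm38.p6, matching the files' build. Of the peaks, 0 passed a chromosome end, and 18 lay on the mitochondrial genome and were left out. Overlapping peaks of a list were merged and the percentage of each bin under peaks was averaged over genes with Python 3.11.15 and numpy 2.4.6 (figures with matplotlib 3.10.9). Genotypes were compared by two-sided exact permutation over the 6 libraries of an antibody (3 against 3, smallest p 0.1), and positions or gene classes within libraries by exact sign flips (smallest p 0.031). Single genes were tested with limma 3.58.1 in R 4.3.3 (trend) on all protein-coding genes of at least 2 kb with a peak in at least 3 of 6 lists, Benjamini-Hochberg adjusted, threshold 0.05, and the script was tested on simulated data. Nothing states whether libraries came from separate animals beyond their sex, so p-values measure the spread between libraries, which may be technical.

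Named genes were, for H3K36me2 body coverage, the 5 highest, the 5 largest falls and rises without overlap of genotypes, and the 3 most skewed to either side at a mean of at least 20%. For Kdm2a in bin 1 they were the 5 highest and the 3 largest falls and rises without overlap. The first 4 of each gene list were added, with others named as chosen after their values were seen. One gene that this rule names is not reported here. Sequences followed the coverage of the start. The genes and lists were chosen with earlier results of these data known. Alternatives were a stricter q, equal numbers of peaks, values divided by genome coverage, bases pooled over genes, 20 bins, stricter neighbour and overlap rules, CpG-rich starts only, Kdm2a status within genotype, females only, a filter of 1 list for limma, leaving out each library, a replicate block and, added after seeing the data, autosomes only.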

Additional observations from a re-analysis of the deposited data

Results flagged for a closer look

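In the ratios that describe the outline of the H3K36me2 profile, the male libraries moved one way between genotypes and the female libraries the other. For bin 1 over the mid-body, KO minus WT was -0.242 between the males (replicate 1) and 0.0896 on average between the females, from 0.0133 to 0.166 over the 4 pairs of a female KO and a female WT library. For bin 10 over the mid-body it was 0.0832 between the males and -0.0389 on average between the females, from -0.0708 to -0.00704 over the same pairs. Whether the sexes differed was not tested, as there was 1 male library per genotype. The male KO library is also the one whose H3K36me2 list stood nearer to WT, so that sex and this library cannot be told apart.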

How the results depend on the processing

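Of 221 alternative values of the 15 comparisons, 173 kept their direction and their side of the threshold, 32 lost the threshold, 1 gained it, 11 changed sign and 4 counts moved by over 1.5 times. For the ratio of bin 1 to the mid-body, KO minus WT became 0.0896 with females only and ranged from -0.0976 to 0.0638 without single libraries. For bin 10 over the mid-body it became -0.115 at the stricter q, -0.0185 with equal numbers of peaks, -0.0195 with pooled bases and -0.0389 with females only, and ranged from -0.0294 to 0.0289 without single libraries. Kdm2a in bin 1 became 3.01, in multiples of genome coverage, when divided by it. Bound minus unbound starts gave -0.269 at the stricter q and 4.07 for CpG-rich starts in the first 1 kb after the TSS, and 0.0139 at the stricter q in the body. Kdm2a in bin 10 minus the mid-body was 0.143 with no protein-coding gene within 5 kb, at an exact permutation p of 0.0625. The positions without overlap of genotypes, 12 of 12, became 1 at the stricter q and 3 when divided by genome coverage. The cause was not tested.

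Without single libraries, body minus upstream flank ranged from -6.27 to -5.12, mid-body minus bin 10 from 0.919 to 1.18, downstream flank minus bin 10 from 1.88 to 2.43, Kdm2a in bin 10 minus mid-body from 0.394 to 0.515, and body coverage of bound minus unbound genes from 1.68 to 2.29. All lost the threshold because 5 libraries allow no exact p below 0.0625. The limma calls ranged from 0 to 289 for H3K36me2 (289 without KO replicate 1) and from 0 to 1 for Kdm2a (1 without KO replicate 2). With the replicate block, body coverage differed by -3.70 (exact permutation p = 0.25, the smallest for 3 pairs) and limma called 0 genes for either mark. For libraries that share a number, deviations from the group means correlated at -0.17, -0.018 and -0.151 for H3K36me2 and at -0.0313, 0.234 and 0.0658 for Kdm2a, so that not every pair was over 0.1 and the numbers were not taken to pair them. Of 650 alternative values of 65 gene values, 587 stayed within the spread of libraries and 27 changed sign, 16 of them when divided by genome coverage. Depth is unknown and limits every comparison of extent.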
